A study of Mus musculus with 12 samples.

Results

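Accessible chromatin was followed at 9 genes of the Notch pathway: the ligands Dll1 and Jag1, the receptors Notch1 and Notch2, the DNA-binding factor Rbpj, and Hes1, Nrarp, Dtx1 and Ptcra, which are read as targets or modulators of the pathway. A region of the count table belonged to a gene when it overlapped the gene's protein-coding RefSeq body, or otherwise when that body was the nearest one within 100 kb. This gave 190 of 188262 regions, and all 190 passed the filter on low counts. Hes1 had 46 regions, Notch2 37, Notch1 26, Dll1 25, Rbpj 25, Dtx1 11, Nrarp 11, Jag1 8 and Ptcra 1. Of the 190, 81 overlapped a body and 109 lay outside one, and nearness alone does not link a site to the activity of a gene.

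The assay was ATAC-seq, which reads open chromatin through adapters that the transposase Tn5 places in it, and there were 12 libraries from male mice. The 4 groups of 3 were KO MPP, WT MPP, KO LT-HSC and WT LT-HSC, where LT-HSC are long-term haematopoietic stem cells and MPP the multipotent progenitors they give rise to. KO mice were Phf6-/Y Rosa26+/Cre-ERT2 and WT mice Phf6f/Y Rosa26+/+, so every KO library and no WT library carried the tamoxifen-activated Cre, and its own effect cannot be told apart from that of Phf6 loss. Nuclei were taken 8 weeks after tamoxifen from 20000 LT-HSC sorted from 3 individual mice of each genotype. All 12 libraries carry this protocol, but it names LT-HSC alone, so that its time, cell number and mice are not stated for MPP by name. For MPP the p-values measure the spread between samples whose origin in separate animals is not stated.

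Notch receptors are activated by ligands of the Delta and Jagged families on a neighbouring cell. ADAM proteases and gamma-secretase then release the receptor's intracellular domain, which joins RBPJ and a Mastermind coactivator on target genes. In blood formation the pathway is best known for committing progenitors to the T cell lineage, and activating NOTCH1 mutations and loss of PHF6 both occur in human T cell acute lymphoblastic leukaemia.

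RefSeq promoter windows of build GRCm38.p6, 250 bases before each start site, were found for 8 of the 9 genes, all but Hes1. The windows of 4 genes are shown: Nrarp and Notch1, whose windows lay under regions called between genotypes, and Rbpj and Ptcra, whose windows held the RBPJ core. Capitals mark the core TGGGAA, or TTCCCA on the other strand, and the N-box of HES repressors, CACNAG, or CTNGTG on the other strand.
Nrarp, chr2:25180508-25180757, plus strand: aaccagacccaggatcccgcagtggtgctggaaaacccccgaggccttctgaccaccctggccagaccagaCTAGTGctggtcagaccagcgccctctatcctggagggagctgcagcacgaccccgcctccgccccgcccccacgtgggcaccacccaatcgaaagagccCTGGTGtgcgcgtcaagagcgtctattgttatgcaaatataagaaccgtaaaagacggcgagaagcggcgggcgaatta
Notch1, chr2:26503823-26504072, minus strand: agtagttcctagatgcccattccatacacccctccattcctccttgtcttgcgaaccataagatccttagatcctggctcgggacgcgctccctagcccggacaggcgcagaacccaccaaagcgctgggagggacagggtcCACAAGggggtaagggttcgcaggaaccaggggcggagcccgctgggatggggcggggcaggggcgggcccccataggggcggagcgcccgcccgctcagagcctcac
Rbpj, chr5:53590096-53590345, plus strand: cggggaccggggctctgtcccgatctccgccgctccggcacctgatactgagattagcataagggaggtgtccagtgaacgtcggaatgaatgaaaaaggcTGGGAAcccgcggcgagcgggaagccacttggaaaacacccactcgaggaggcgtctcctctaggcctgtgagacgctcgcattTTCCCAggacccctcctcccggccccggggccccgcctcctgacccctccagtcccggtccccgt
Ptcra, chr17:46763713-46763962, minus strand: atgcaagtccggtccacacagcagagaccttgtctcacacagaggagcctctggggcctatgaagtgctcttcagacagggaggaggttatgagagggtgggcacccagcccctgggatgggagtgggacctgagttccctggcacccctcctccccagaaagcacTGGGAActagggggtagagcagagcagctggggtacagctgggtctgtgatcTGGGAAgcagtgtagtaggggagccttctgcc

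The Rbpj window held the core with its first base 149 and 65 bases before the start site, and a second Rbpj start site had 1 match 205 bases before it. The Ptcra window held it 84 and 32 bases before the start. No match was found in the windows of Notch1, Notch2, Dtx1, Nrarp, Dll1 or Jag1, which says only that these letters are not in these windows. Among 32851 windows of the same length, 21.6% held the core and 36.7% held the N-box. The N-box matched at 179 and 79 bases in Nrarp, 108 in Notch1, 247 in Notch2 and 107 in Dtx1. The looser core TGNGAA, which includes every TGGGAA, was in 44.6% of windows. Apart from the TGGGAA matches, it was found at 201 and 92 bases in Notch1 and at 242 bases in Jag1. A head-to-head pair, TGNGAA then TTCNCA with 15 to 17 bases between, was in 0.116% and in none of the 8 genes' windows given; Hes1 had none to search. Accessible regions overlapped the windows of Notch1, Notch2, Dtx1, Nrarp, Dll1 and Rbpj, and no region of the table overlapped those of Ptcra and Jag1.

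Counts in regions totalled 22665988 to 48547234 per library, and levels are given as CPM, counts scaled to library size by TMM. The population labels were checked on marker genes, from lists chosen with earlier results of these data known, so the check is not independent. All 8 LT-HSC markers were lower in MPP, and all 7 MPP markers higher, in both genotypes by edgeR on gene sums. The labels' knockout could not be checked in this way. The labels do not state the deleted interval of Phf6, and of the 10 regions at Phf6 none was called lower in KO. The share of counts in regions within 1 kb of a gene end was 40.97% to 41.44% in KO MPP, 39.16% to 41.02% in WT MPP, 39.17% to 39.62% in KO LT-HSC and 37.83% to 38.86% in WT LT-HSC.

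Between the populations the Notch genes differed in direction, as regions did over the whole set. The ligand genes Jag1 and Dll1 were less accessible in MPP than in LT-HSC, the receptor genes Notch1 and Notch2 more accessible, and the single region of Ptcra far more accessible. In WT, 69 of 190 regions were called higher and 60 lower in MPP, together 67.9%, against 69.8% of all 186373 regions tested, 34.6% higher and 35.2% lower (edgeR's quasi-likelihood test, adjusted p under 0.05 over all regions). In KO, 77 were higher and 62 lower, together 73.2%, against 67.7% of all regions, 33.3% higher and 34.4% lower. The median log2 fold change of the 190 was 0.096 in WT and 0.127 in KO, against 0.0060 and 0.0002 over all regions. Of the 190 regions, 118 were called in both genotypes, each in the same direction. The matching share of all regions is not given here, so this is no result particular to the Notch genes. In bulk libraries a smaller share of cells with an open site and less accessibility per cell cannot be told apart.

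**Figure D1:**
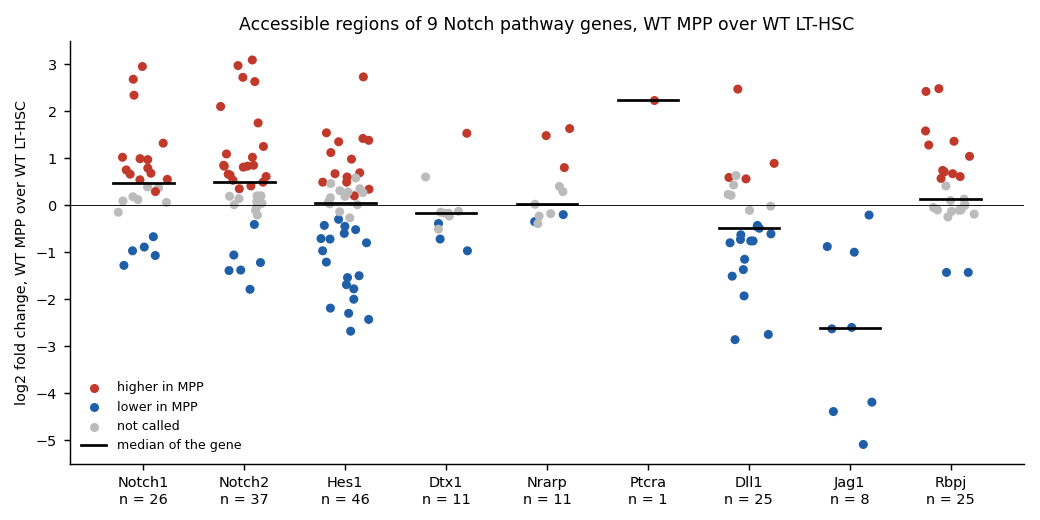
Each point is 1 accessible region, placed by its log2 fold change of WT MPP over WT LT-HSC (vertical axis) under its gene (horizontal axis). Red points were called higher and blue points lower at an adjusted p under 0.05, grey points were not called, and black bars are gene medians. All 8 Jag1 regions lie below 0, while 21 of 37 Notch2 regions were called higher.

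Jag1 encodes a Jagged-family ligand. All 8 of its regions were lower in MPP in both genotypes, and 3 of them lay together 74.6 to 88.1 kb upstream of the start site. At the strongest of these, chr2:137192135-137192639, the level was 0.150, 0.0834 and 0.0338 CPM in WT MPP, against 2.78, 3.79 and 3.33 CPM in WT LT-HSC. It was 0.039, 0.173 and 0.108 CPM in KO MPP and 3.39, 4.67 and 4.05 CPM in KO LT-HSC. Every MPP library was far below every LT-HSC library, and the MPP values rest on 11 reads in WT and 12 in KO, summed over 3 libraries each. The log2 fold change was -5.09 ± 0.30 (SE, n = 3 each; adjusted p = 9.93e-16 by edgeR) in WT, a fitted value that depends on the prior count at such low levels. The other 2 of the cluster had -4.39 ± 0.35 and -4.19 ± 0.33. These 3 were the regions of the 190 that were at least 16-fold lower in WT MPP, a size reached by 0.322% of all regions.

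The remaining Jag1 regions fell less. The region 6.47 kb inside the gene, chr2:137109834-137110264, had 0.902, 0.688 and 0.643 CPM in WT MPP, against 4.56, 4.77 and 4.37 CPM in WT LT-HSC (log2 fold change -2.60 ± 0.18, adjusted p = 5.11e-14). The strongest Jag1 region, chr2:137116868-137117717, centred 0.772 kb upstream of the start, had 23.7, 24.3 and 22.5 CPM in WT MPP, against 46.8, 51.7 and 42.3 CPM in WT LT-HSC. Its log2 fold change was -1.0 ± 0.07, so the site next to the start stayed open in MPP at a lower level while the upstream cluster was almost without reads.

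Dll1 encodes a Delta-family ligand. In WT, 15 of its 25 regions were lower in MPP and 4 higher, including all 5 in the gene body, which were lower. The body region 3.12 kb inside the gene, chr17:15372432-15372979, had 0.276, 0.375 and 0.203 CPM in WT MPP, against 1.98, 2.61 and 1.94 CPM in WT LT-HSC (log2 fold change -2.86 ± 0.25, adjusted p = 6.14e-12). A region 5.06 kb upstream, chr17:15381793-15382196, had 0.301, 0.583 and 0.372 CPM in WT MPP, against 2.92, 3.12 and 2.75 CPM in WT LT-HSC (-2.75 ± 0.22). At both sites no MPP library reached the lowest LT-HSC library. The region at the start site, chr17:15375230-15376078, was lower by a smaller amount (-0.61 ± 0.10). Downstream of the gene the direction was mixed, with 3 regions higher and 7 lower of 16. There the region at chr17:15355059-15355460 had 1.03, 0.521 and 0.744 CPM in WT MPP, against 0.229, 0.112 and 0.0579 CPM in WT LT-HSC (2.47 ± 0.45).

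Notch1, the receptor that drives T cell commitment, had 14 regions higher and 5 lower of 26 in WT. The region 27.6 kb inside the gene, chr2:26476023-26476431, had 4.68, 4.83 and 3.89 CPM in WT MPP, against 0.602, 0.449 and 0.695 CPM in WT LT-HSC (log2 fold change 2.95 ± 0.19, adjusted p = 5.30e-15). An upstream region, chr2:26534357-26535007, had 10.3, 11.9 and 9.94 CPM in WT MPP, against 2.15, 1.97 and 2.23 CPM in WT LT-HSC (2.34 ± 0.12). The groups were well apart at both. Close to the start the order was the other way: a region 3.89 kb upstream, chr2:26507495-26507936, had 8.34, 9.13 and 7.71 CPM in WT MPP, against 16.9, 17.3 and 15.6 CPM in WT LT-HSC (-0.97 ± 0.09). The region over the printed Notch1 window differed by 0.06 ± 0.08 and was not called (adjusted p = 0.454).

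Notch2, the second receptor, had 21 regions higher and 6 lower of 37 in WT. All 7 regions upstream of it were higher in both genotypes, with log2 fold changes from 0.85 to 2.97 in WT. The most abundant of the 5 that lay 14.5 to 21.9 kb upstream, chr3:97993516-97994546, had 7.67, 7.02 and 6.26 CPM in WT MPP, against 2.01, 1.88 and 2.37 CPM in WT LT-HSC (1.75 ± 0.13, adjusted p = 2.91e-13). Inside the gene, chr3:98032185-98032633 had 7.19, 8.48 and 6.15 CPM in WT MPP, against 0.831, 0.477 and 1.27 CPM in WT LT-HSC (3.09 ± 0.18). A body region farther along went the other way. At chr3:98063129-98063626 the level was 12.9, 14.3 and 11.5 CPM in WT MPP, against 27.4, 30.4 and 23.2 CPM in WT LT-HSC (-1.06 ± 0.09), so single sites of 1 receptor gene differed in direction beyond the spread between libraries.

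**Figure D2:**
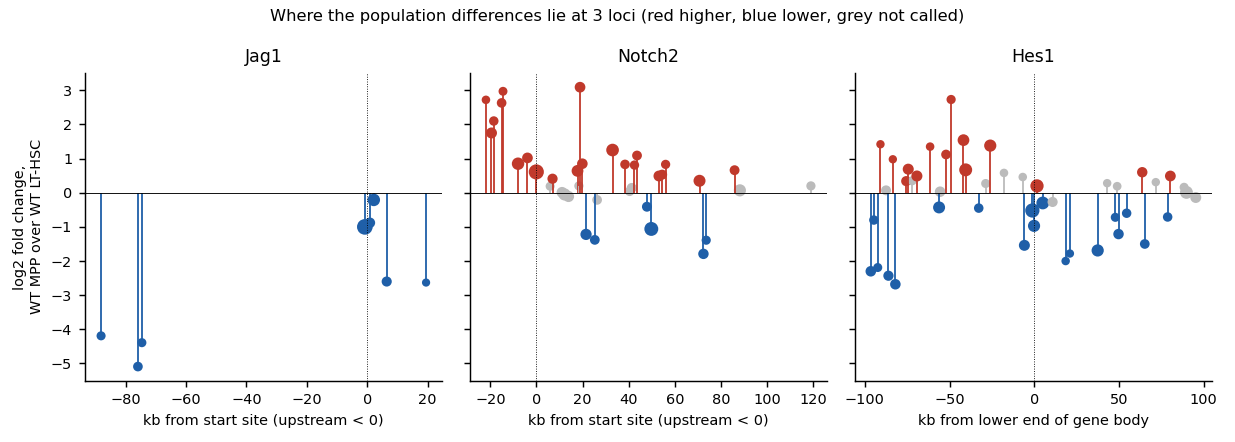
Vertical lines show the log2 fold change of WT MPP over WT LT-HSC at each region of Jag1, Notch2 and Hes1 against its distance in kb from the start site, or for Hes1 from the lower-coordinate end of the body. Red lines were called higher, blue lower and grey not called, and larger points mark higher mean CPM. The Jag1 cluster 74.6 to 88.1 kb upstream reaches -5.09, the 7 upstream Notch2 regions are all above 0, and Hes1 shows both directions.

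Rbpj, the factor through which all Notch receptors act, had 11 regions higher and 2 lower of 25 in WT. In the gene, chr5:53572466-53572933 had 1.33, 0.896 and 1.01 CPM in WT MPP, against 0.115, 0.112 and 0.347 CPM in WT LT-HSC (2.48 ± 0.35, adjusted p = 1.87e-07). Upstream, chr5:53529857-53530306 had 1.33, 1.69 and 1.69 CPM in WT MPP, against 4.84, 3.48 and 4.37 CPM in WT LT-HSC (-1.43 ± 0.16). No libraries of the populations overlapped at either site.

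Hes1 encodes a transcriptional repressor and is a classic Notch target. Its 46 regions were split, with 14 higher and 19 lower in WT MPP. On the lower-coordinate side 11 of 26 were higher and 9 lower, and on the other side 2 of 18 were higher and 9 lower; a difference between the sides was not tested. A site 82.0 kb from the body, chr16:29983110-29983598, had 1.05, 1.38 and 0.913 CPM in WT MPP, against 6.19, 7.58 and 8.16 CPM in WT LT-HSC (-2.68 ± 0.17, adjusted p = 3.50e-15). Another at 41.8 kb, chr16:30023398-30023802, had 11.4, 13.0 and 11.3 CPM in WT MPP, against 4.10, 3.99 and 4.25 CPM in WT LT-HSC (1.54 ± 0.10). The groups were apart at both, in opposite directions. The strongest region near the gene, chr16:30063910-30064498, had 17.4, 20.4 and 15.5 CPM in WT MPP, against 24.3, 29.3 and 23.1 CPM in WT LT-HSC (-0.52 ± 0.09).

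Nrarp, a Notch target whose product restrains the Notch complex, showed little net difference between populations, with 3 regions higher and 2 lower of 11 in WT. The region over the printed Nrarp window, chr2:25180451-25180882, had 24.4, 23.4 and 21.8 CPM in WT MPP, against 22.9, 22.8 and 23.0 CPM in WT LT-HSC, which overlapped (0.02 ± 0.07, adjusted p = 0.781). An upstream region, chr2:25170423-25170915, had 5.59, 4.98 and 6.19 CPM in WT MPP, against 2.01, 1.74 and 2.20 CPM in WT LT-HSC (1.48 ± 0.14). Dtx1, a Deltex-family ubiquitin ligase gene, had 1 region higher and 3 lower of 11. The higher one lay in the gene, at chr5:120687399-120688284, with 2.13, 2.13 and 2.30 CPM in WT MPP, against 0.831, 0.618 and 0.810 CPM in WT LT-HSC (1.53 ± 0.20). The lower one next to the start, chr5:120710223-120710933, had 2.23, 1.83 and 2.27 CPM in WT MPP, against 4.82, 3.93 and 3.50 CPM in WT LT-HSC (-0.97 ± 0.15).

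Ptcra encodes the pre-T-cell receptor alpha chain, a gene of early T cell development. Its 1 region, chr17:46767871-46768372, lay 4.41 kb upstream of the start, outside the printed window. It had 2.43, 2.67 and 3.08 CPM in WT MPP, against 0.745, 0.562 and 0.405 CPM in WT LT-HSC (2.24 ± 0.22, adjusted p = 1.29e-10). In KO it had 2.18, 2.25 and 3.07 CPM in MPP, against 0.330, 0.354 and 0.223 CPM in LT-HSC (3.01 ± 0.26). All 6 MPP libraries were above all 6 LT-HSC libraries. Of 9 T cell markers, 8 had a region and Cd3g had none. Their summed level was 216.5 to 228.9 CPM in KO MPP, 235.2 to 245.4 CPM in WT MPP, 216.0 to 229.5 CPM in KO LT-HSC and 220.4 to 230.0 CPM in WT LT-HSC. In WT, 6 of the 8 were called higher in MPP and 2 lower, and their part in the Ptcra difference was not tested.

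Summed over each gene's regions, 4 of the 9 genes were higher and 4 lower in MPP in each genotype, and Nrarp was not called in either. Among all 18826 genes tested, 73.3% were called in WT and 72.5% in KO. Jag1 averaged 37.0 ± 0.424 CPM in WT MPP and 76.9 ± 5.26 CPM in WT LT-HSC (SD, n = 3 each; log2 fold change -1.06 ± 0.05). Dll1 averaged 48.7 ± 2.94 CPM in WT MPP and 77.3 ± 3.42 CPM in WT LT-HSC (-0.67 ± 0.04). Smaller falls were found for Dtx1 (-0.31 ± 0.06) and Hes1 (-0.19 ± 0.04). Notch1 averaged 202 ± 10.2 CPM in WT MPP and 162 ± 5.97 CPM in WT LT-HSC (0.32 ± 0.04), and Notch2 204 ± 13.9 CPM in WT MPP and 169 ± 4.79 CPM in WT LT-HSC (0.27 ± 0.04). Rbpj rose by the least (0.11 ± 0.03), and that call was lost under loess scaling and with the gene-end share added as covariate; the Dtx1 call was lost with the covariate. Per kb of region, WT LT-HSC levels ran from 18.5 CPM at Jag1 down to 1.16 CPM at Ptcra, while in WT MPP Notch1 stood at the top with 15.9 CPM and Dtx1 at the bottom with 3.00 CPM.

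**Figure D3:**
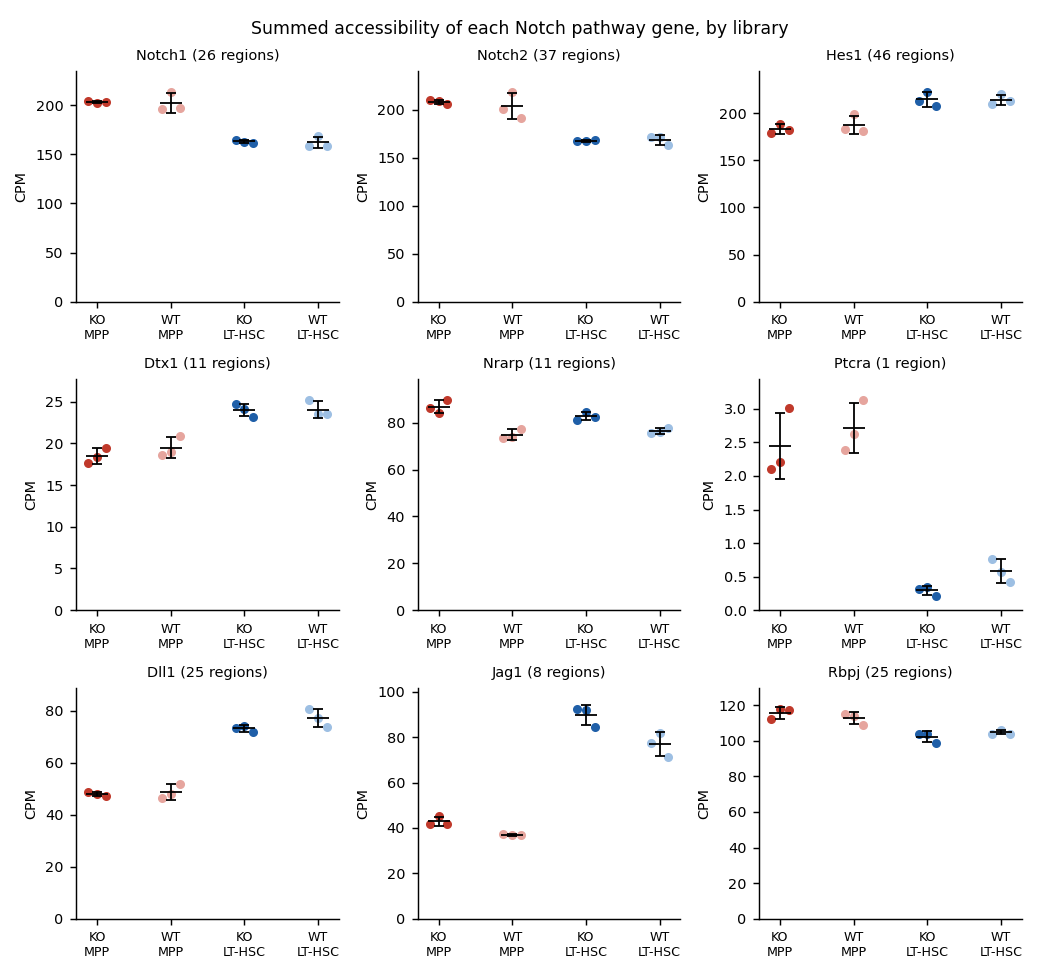
Summed CPM of all regions of each gene (vertical axis) in each library, for KO MPP, WT MPP, KO LT-HSC and WT LT-HSC from left to right (horizontal axis). Coloured points are libraries, black bars the mean and its SD (n = 3). Jag1 and Dll1 are lower in MPP and Ptcra higher, and KO stands above WT at Nrarp and Jag1.

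Between KO and WT, few regions at these genes were called, and whether their share differed from that of all regions was not tested. In LT-HSC, 5 of 190 regions were called higher in KO and 1 lower, together 3.16%, against 4.74% of all regions (3.27% higher, 1.47% lower), and with total-count scaling the split was 3 higher and 3 lower. In MPP, 10 were higher and 5 lower, together 7.89%, against 8.71% of all regions (5.12% higher, 3.59% lower). The median log2 fold change was 0.036 in LT-HSC and 0.007 in MPP, against -0.0014 and -0.0093 over all regions. The 18 regions called in either population belonged to Notch1, Notch2, Rbpj, Jag1, Nrarp and Hes1, and no region of Dll1, Dtx1 or Ptcra was called. When each library's gene-end share was added as covariate, 0 of the 190 were called in LT-HSC and 2 in MPP. Over all regions this fit called 1382 higher and 461 lower in LT-HSC, and 3304 higher and 2310 lower in MPP. Without the covariate, 6093 of all regions were higher and 2741 lower in LT-HSC, and 9542 and 6688 in MPP. Of the 16 regions at gene ends, 2 were higher in KO LT-HSC and 4 in KO MPP and none was lower. The share of all gene-end regions called is not given here, so these counts have no background. The gene-end share of counts was higher in KO on average, and a link to these calls was not tested. The LT-HSC count of Notch regions was 2 without KO LT-HSC library 2 and 3 without WT LT-HSC library 1. Calls over all regions fell too, to 2571 higher and 833 lower, and to 3477 and 1484, in the same order. The MPP count of Notch regions was 5 without KO MPP library 2 and 3 without KO MPP library 3. It was 8 without WT MPP library 2 and 9 without WT MPP library 3. In the same order, calls over all regions fell to 4262 higher and 2472 lower, 4198 and 2237, 5970 and 3773, and 7072 and 5076.

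**Figure D4:**
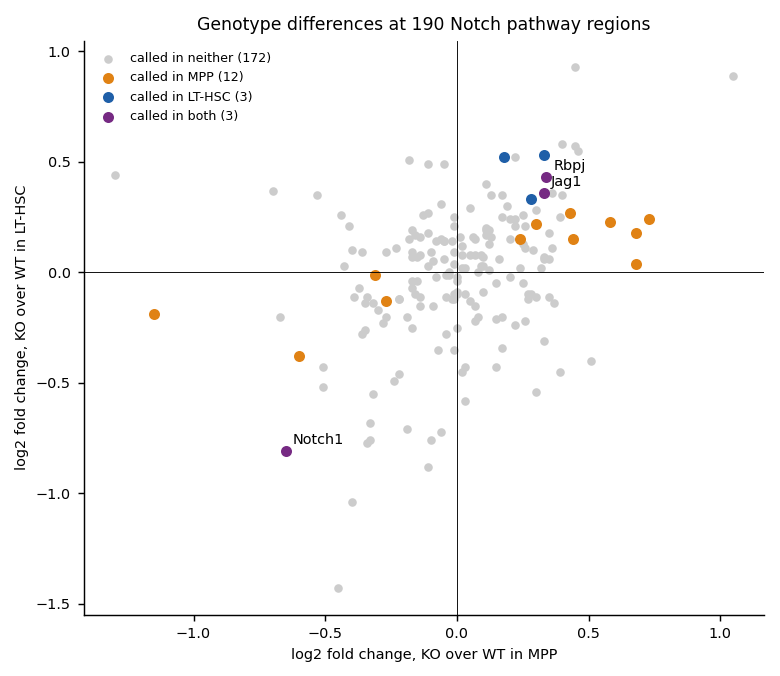
Each of the 190 regions is placed by its log2 fold change of KO over WT in MPP (horizontal axis) and in LT-HSC (vertical axis), coloured by the population in which it was called. The 3 regions called in both, at Jag1, Rbpj and Notch1, have the same sign in each.

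Jag1 gained accessibility in KO beside its start site in both populations. The region chr2:137116868-137117717 had 63.9, 61.4 and 54.7 CPM in KO LT-HSC, against 46.8, 51.7 and 42.3 CPM in WT LT-HSC (0.36 ± 0.07, adjusted p = 0.00309). It had 28.0, 31.6 and 28.9 CPM in KO MPP, against 23.7, 24.3 and 22.5 CPM in WT MPP (0.33 ± 0.07, adjusted p = 0.00520). The lowest KO library was above the highest WT library in each population. Both calls were lost with the gene-end covariate, and the MPP call also without KO MPP library 2. Just inside the gene, chr2:137115418-137115819 had 3.35, 2.94 and 3.61 CPM in KO MPP, against 2.28, 2.04 and 2.30 CPM in WT MPP (0.58 ± 0.14, adjusted p = 0.00898). That call was lost with the covariate, without KO MPP library 3 and without WT MPP library 2. None of the 3 far upstream Jag1 regions was called between genotypes.

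Notch1 had calls in both directions. A region 36.8 kb upstream, chr2:26540414-26540855, had 0.716, 0.778 and 0.712 CPM in KO LT-HSC, against 1.38, 1.32 and 1.19 CPM in WT LT-HSC (-0.81 ± 0.22, adjusted p = 0.0291). In MPP it had 1.99, 1.88 and 2.32 CPM in KO, against 3.06, 3.73 and 2.87 CPM in WT (-0.65 ± 0.16, adjusted p = 0.00817). KO was below WT without overlap in both populations. The LT-HSC call was lost without any one of 5 libraries, KO LT-HSC 1, 2 or 3 and WT LT-HSC 1 or 2, and also with limma-voom. The MPP call was lost without KO MPP library 2 or WT MPP library 2. Both were lost with the gene-end covariate and without WT library 2 of both populations. A second upstream region, centred 9.72 kb from the start, fell in MPP, chr2:26513326-26513753, with 35.7, 33.9 and 32.5 CPM in KO MPP, against 39.1, 42.6 and 41.6 CPM in WT MPP (-0.27 ± 0.07, adjusted p = 0.0138). The region over the printed Notch1 window, chr2:26503622-26504029, rose, with 30.3, 33.7 and 33.0 CPM in KO MPP, against 28.3, 28.2 and 25.6 CPM in WT MPP (0.24 ± 0.08, adjusted p = 0.0403). That call and the one 9.72 kb upstream were each lost with the gene-end covariate and without KO MPP library 2 or 3 or WT MPP library 2. The window's call was also lost without WT MPP library 1 or 3 and with loess or total-count scaling, in all 8 of 17 alternatives.

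Notch2 had 1 region called in LT-HSC and 3 in MPP. In the gene body, chr3:98056841-98057514 had 3.55, 3.09 and 4.53 CPM in KO MPP, against 2.30, 2.40 and 2.0 CPM in WT MPP (0.73 ± 0.18, adjusted p = 0.0101), with no overlap, and the call was lost without KO MPP library 3. Another body region, chr3:98069243-98069778, rose by 0.68 ± 0.20, and 1 at chr3:98101492-98101921 fell by 0.31 ± 0.10 on the log2 scale (adjusted p = 0.0265 and 0.0377). The LT-HSC gain, at chr3:98009413-98009863, was 0.52 ± 0.15 with an adjusted p of 0.0475. These 3 calls were lost in 8, 9 and 12 of 17 alternatives.

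Rbpj had a gain in the gene in both populations. The region chr5:53594263-53594748 had 11, 11.2 and 11.2 CPM in KO LT-HSC, against 8.06, 7.78 and 8.97 CPM in WT LT-HSC (0.43 ± 0.10, adjusted p = 0.0102). It had 11.2, 10.3 and 10 CPM in KO MPP, against 9.47, 7.92 and 7.47 CPM in WT MPP (0.34 ± 0.10, adjusted p = 0.0276). No libraries overlapped between genotypes; the LT-HSC call was lost only with the covariate among 17 alternatives, and the MPP call without any one of 5 libraries, KO MPP 1, 2 or 3 and WT MPP 2 or 3. A second LT-HSC gain, chr5:53588393-53588794, had 6.44, 7.18 and 5.43 CPM in KO LT-HSC, against 5.13, 3.65 and 4.46 CPM in WT LT-HSC (0.53 ± 0.13, adjusted p = 0.0160). It was lost without KO LT-HSC library 1 or 2 or WT LT-HSC library 2. In MPP, 1 upstream region rose (0.43 ± 0.13) and 2 distal ones fell (-0.60 ± 0.15 and -1.15 ± 0.35), the last at 0.312 to 0.458 CPM in KO MPP, against 0.501 to 1.08 CPM in WT MPP.

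Nrarp rose in KO MPP at the printed window. The region chr2:25180451-25180882 had 27.7, 28.5 and 29.9 CPM in KO MPP, against 24.4, 23.4 and 21.8 CPM in WT MPP (0.30 ± 0.07, adjusted p = 0.00481), and the call was lost only with the covariate among 17 alternatives. In LT-HSC it had 27.8, 26.8 and 25.3 CPM in KO, against 22.9, 22.8 and 23.0 CPM in WT (0.22 ± 0.07, adjusted p = 0.0581). KO was above WT without overlap in both populations, and the effect was not called as different between populations (interaction log2 fold change 0.08, adjusted p = 0.889). A region 12.9 kb upstream, chr2:25167474-25168287, had 7.44, 6.24 and 7.71 CPM in KO MPP, against 5.24, 5.0 and 5.58 CPM in WT MPP (0.44 ± 0.11, adjusted p = 0.0118). That call was kept with the covariate and lost without KO MPP library 3 or WT MPP library 2.

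At Hes1, the region chr16:30063910-30064498 had 34.5, 33.7 and 28.0 CPM in KO LT-HSC, against 24.3, 29.3 and 23.1 CPM in WT LT-HSC (0.33 ± 0.09, adjusted p = 0.0345). The highest WT library lay above the lowest KO library, and the call was lost without KO LT-HSC library 1 or 2 or WT LT-HSC library 1 or 3. In MPP the same region differed by 0.28 ± 0.10 (adjusted p = 0.0594). Ptcra had 0.330, 0.354 and 0.223 CPM in KO LT-HSC, against 0.745, 0.562 and 0.405 CPM in WT LT-HSC, which did not overlap but did not pass the test (-0.88 ± 0.34, adjusted p = 0.132).

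**Figure D5:**
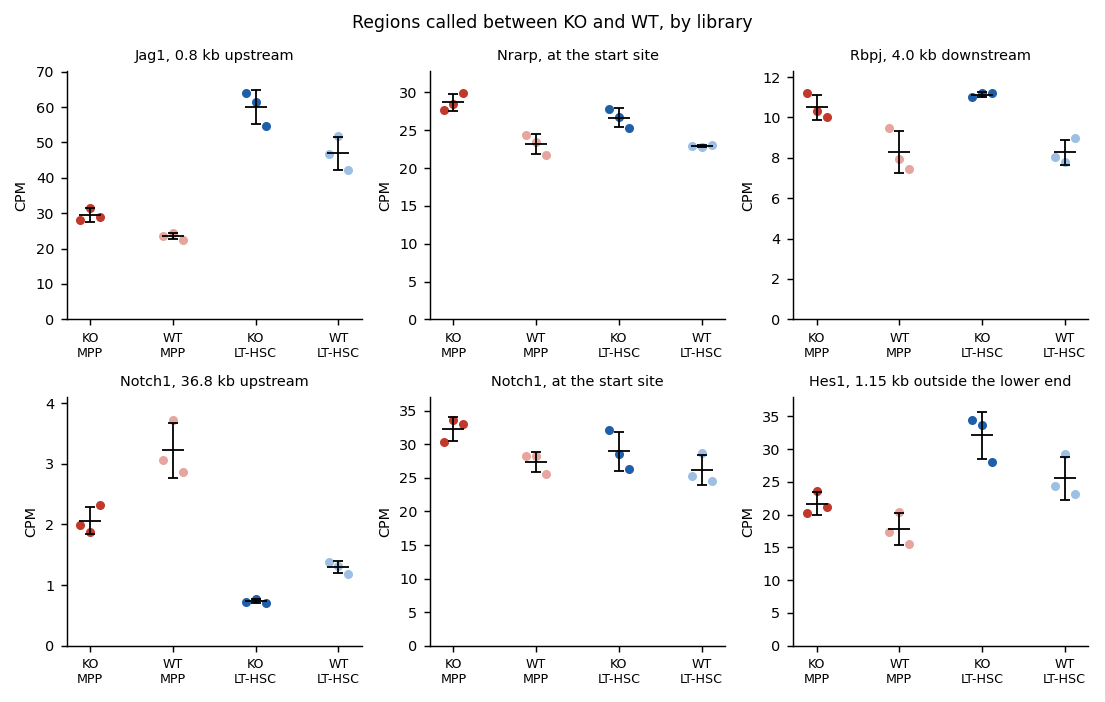
CPM per library (vertical axis) at 6 regions called between KO and WT, for KO MPP, WT MPP, KO LT-HSC and WT LT-HSC from left to right (horizontal axis). Coloured points are libraries, black bars the mean and its SD (n = 3). KO is above WT at Jag1, Nrarp and Rbpj in both populations, and below WT at the Notch1 region 36.8 kb upstream.

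Whether the effect of genotype differed between populations was tested by the interaction, and 0 of 190 regions were called by edgeR, with 6 at an unadjusted p under 0.05 (7.56% of all regions were), and 0 by DESeq2 or limma-voom. Over all regions 0.00805% were called. The sums over regions gave calls for Jag1 and Nrarp among the 9 genes, while 17% of all genes were called in LT-HSC and 29.2% in MPP. Jag1 summed to 92.6, 91.9 and 84.7 CPM in KO LT-HSC, against 77.4, 81.9 and 71.4 CPM in WT LT-HSC (0.23 ± 0.05, adjusted p = 0.00429). In MPP it summed to 41.7, 45.1 and 41.9 CPM in KO, against 37.5, 36.7 and 36.7 CPM in WT (0.22 ± 0.05, adjusted p = 0.00470). KO was above WT without overlap in both, and each call was lost only with the covariate among 18 alternatives. Nrarp summed to 86.4, 84.1 and 89.6 CPM in KO MPP, against 73.3, 73.9 and 77.5 CPM in WT MPP (0.21 ± 0.04, adjusted p = 0.000331). This call was kept in all 18 alternatives run. In LT-HSC Nrarp had 81.2, 84.6 and 82.5 CPM in KO, against 75.7, 75.9 and 77.8 CPM in WT (0.11 ± 0.04, adjusted p = 0.0382). That smaller call was kept in 9 of 18, and was lost without KO LT-HSC library 1, 2 or 3 or WT LT-HSC library 1 or 2. It was also lost with the covariate, with loess scaling, with regions within 10 kb alone and without WT library 2 of both populations. Of the other 7 genes, all but Ptcra had log2 fold changes between -0.08 and 0.04 in both populations.

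The other genes of the pathway, 42 in all with 634 regions, showed a similar share of calls. In LT-HSC, 17 regions were called higher in KO and 1 lower (2.84%), and in MPP 40 were higher and 12 lower (8.20%), beside the shares of all regions given above. With total-count scaling the splits were 11 higher and 6 lower in LT-HSC, and 34 higher and 18 lower in MPP. The median log2 fold change was 0.048 in LT-HSC and 0.050 in MPP. Psenen, a subunit of gamma-secretase, had 43.2, 43.8 and 44.6 CPM in KO LT-HSC, against 32.7, 35.3 and 31.6 CPM in WT LT-HSC (0.40 ± 0.07, adjusted p = 0.000920). Its call was lost with the covariate alone. Fbxw7, which encodes a ubiquitin ligase subunit that turns over the Notch intracellular domain, had 13.4, 12.6 and 13.2 CPM at its start site in KO LT-HSC, against 9.0, 9.41 and 9.95 CPM in WT LT-HSC (0.47 ± 0.09, adjusted p = 0.00158). Hes5, a relative of Hes1, had 24.9, 23.8 and 22.8 CPM in KO LT-HSC, against 17.6, 18.9 and 17 CPM in WT LT-HSC (0.42 ± 0.08, adjusted p = 0.00245). The Fbxw7 and Hes5 calls were kept in all 17 alternatives run, and no libraries overlapped at any of the 3 genes. Summed over its regions, Hes5 rose by 0.22 ± 0.07 in LT-HSC (adjusted p = 0.0278 by edgeR), a call kept in 12 of 18 alternatives. In MPP the Hes5 sum differed by 0.03 ± 0.07 (adjusted p = 0.754), and its interaction was not called (adjusted p = 0.498). The Fbxw7 sum was not called in LT-HSC (adjusted p = 0.971).

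In MPP the lowest p-values of the pathway list were at Notch3, Jag2 and Psen2. A region assigned to the receptor gene Notch3, 58.2 kb downstream of its start, had 4.21, 6.19 and 5.71 CPM in KO MPP, against 3.03, 3.21 and 3.21 CPM in WT MPP (0.79 ± 0.12, adjusted p = 0.000183). A region in the ligand gene Jag2 had 14.5, 14.3 and 13.6 CPM in KO MPP, against 9.89, 10.1 and 9.03 CPM in WT MPP (0.54 ± 0.09, adjusted p = 0.000317). A region in Psen2, another gamma-secretase subunit gene, had 2.26, 2.30 and 2.34 CPM in KO MPP, against 1.25, 1.15 and 0.981 CPM in WT MPP (1.02 ± 0.18, adjusted p = 0.000776). KO was above WT without overlap at each, and these 3 calls were kept in all 17 alternatives run. Regions of Maml3, Maml2 and Adam10 also rose (0.60 ± 0.12, 0.32 ± 0.07 and 0.60 ± 0.13). Of the pathway regions, 9 were called in both populations, all in the same direction, and 0 were called in the interaction by edgeR. The share of all regions called in both populations is not given, for these or for the 3 Notch regions.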

How the data were processed

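The deposited values are raw read counts over 1 union set of regions shared by all 12 libraries, with no normalization by the authors. Per the submitters' processing notes the tools included featureCounts, DESeq2 1.22.1, MACS2 2.1.1, Bowtie2 and cutadapt, on GRCm38; settings and the making of the union set are not given there. Regions of 402 to 3503 bp were assigned to RefSeq protein-coding genes of GRCm38.p6, and distances run from the region's centre. Total counts were 22665988 to 48547234 per library, and pairs of replicates had r of 0.971 to 0.982 on log2 CPM.

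Counts were fitted with edgeR 4.0.16 (R 4.3.3) on all 12 libraries with 1 mean per group, TMM and filterByExpr, which kept 186373 regions. The 2-sided quasi-likelihood F test gave p-values, adjusted by Benjamini-Hochberg over all tested regions with a threshold of 0.05; the fit was tested on simulated data. Counts summed per gene were fitted in the same way over 18826 genes. The ± after a log2 fold change is its SE. Regions of 1 gene are not independent. Alternatives were DESeq2 1.42.0, limma-voom (limma 3.58.1), RLE, total-count and loess scaling, 2 other filters, the compared groups alone, the gene-end share as a covariate, a replicate block, regions within 10 kb and leaving out each library. Those on gene sums, and leaving out WT library 2 of both populations, were added after the data were examined.

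The 9 genes, the pathway list and the marker lists were chosen with earlier results of these data known. Named regions were every region of the 9 genes called between genotypes, the strongest at a gene end, for each gene up to 2 higher and 2 lower in MPP with the lowest p in WT that were also called in KO, and up to 8 pathway regions per genotype comparison with the lowest p and a mean of at least 1 CPM. The text gives a selection of these, and the Jag1 and Notch2 upstream clusters, the Phf6 regions and the genes in the closing observations were chosen after their values were seen.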

Additional observations from a re-analysis of the deposited data

How the results depend on the processing

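Adding the gene-end share as covariate lowered the Notch genotype calls to 0 in LT-HSC (6 in the reported fit) and 2 in MPP (15). Those of the pathway list fell to 4 (18) and 19 (52), and the pathway regions called between populations in WT to 292 (443). Calls over all regions fell as well, to 1382 higher and 461 lower in LT-HSC (6093 and 2741). In MPP they fell to 3304 and 2310 (9542 and 6688), and between populations in WT to 42670 and 43439 (64488 and 65514). The gene-end share itself differed between genotypes, and which part of a difference it carries was not tested. Leaving out 1 library at a time gave 2 to 7 and 3 to 13 called Notch regions, and 9 to 14 and 18 to 56 pathway regions, in LT-HSC and MPP. Over all regions each of these fits called fewer than the reported fit. The range was from 2571 higher and 833 lower to 4595 and 1991 in LT-HSC. In MPP it was from 4198 and 2237 to 8299 and 5870. Among regions within 10 kb alone, 67 Notch regions in WT and 75 in KO were called between populations (129 and 139 in the reported fit). This is a smaller set of regions, and its size is not given here. The matching share of all regions is not given either, so the lower counts do not show a loss of calls. Total-count scaling turned the LT-HSC split of 5 higher and 1 lower into 3 and 3, and that of all regions from 6093 and 2741 into 3214 and 3894. A replicate block, with 1 term per library number shared by both genotypes, gave 9 Notch regions in LT-HSC, 18 in MPP and 0 in the interaction. Over all regions it gave 7676 higher and 3500 lower in LT-HSC, and 11084 and 7984 in MPP, also more than the reported fit. Such a block does not model pairing within a genotype. Libraries of the same number and genotype had r of 0.0536 to 0.114 in their deviations, not all above 0.1, so the numbers were not taken to pair them, although within a genotype all 12 correlated best with their own number. No named difference that was called changed sign under these alternatives. Depth limited the far upstream Jag1 regions, where MPP libraries held few reads.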

Other observations

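On sums over regions by edgeR, 13 of the 42 other pathway genes were higher and 17 lower in WT MPP than in WT LT-HSC. Among all 18826 genes, 73.3% were called either way in this comparison. Heyl, which encodes a repressor of the Hey family, averaged 18.4 ± 0.717 CPM in WT MPP and 36.0 ± 2.20 CPM in WT LT-HSC (log2 fold change -0.97 ± 0.06, adjusted p = 4.23e-12). Dlk1, a Delta-like gene whose product lacks the usual receptor-binding domain, averaged 83.4 ± 3.78 CPM in WT MPP and 156 ± 5.46 CPM in WT LT-HSC (-0.90 ± 0.04, adjusted p = 1.10e-14). Adam17, a protease gene, averaged 75.2 ± 2.27 CPM in WT MPP and 52.8 ± 1.83 CPM in WT LT-HSC (0.51 ± 0.04, adjusted p = 6.65e-10). The endothelial receptor gene Notch4 averaged 87.1 ± 4.17 CPM in WT MPP and 62.9 ± 1.53 CPM in WT LT-HSC (0.47 ± 0.04, adjusted p = 8.30e-10). The receptor gene Notch3 went the other way, with 103 ± 4.12 CPM in WT MPP and 141 ± 2.0 CPM in WT LT-HSC (-0.45 ± 0.04, adjusted p = 3.93e-10 by edgeR). Each of these genes was called in the same direction in KO.

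The genes whose summed levels followed those of the Notch genes most closely were Rora and Exoc6b for Jag1 (Pearson r = 0.995 each over 12 libraries), Fam81b and Plxna4 for Dll1 (0.997 each), Selplg and Tmigd3 for Notch1 (0.992 each), and Lilr4b for Notch2 (0.993). Nrarp was closest to Nsun4 (0.957). These are descriptions over 13431 genes, and the libraries share the population difference.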
